A study of Mus musculus with 6 samples.

Results

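Olfactory receptor genes were examined in B16F10 cells, an established mouse melanoma line, as a family whose main known place is the nose. They were chosen by name and by level: a gene was taken when its name held "olfactory receptor" but not "pseudogene", when it lay above the lowest average expression of the table, which marks genes without a read, and when its average expression was under 0 on the log2 CPM scale (CPM, counts scaled to a common library size). The rule found 98 genes among 1115 olfactory receptor genes and 27179 genes in all. Of the other receptor genes, 1016 had no read in any library and 1 lay above the limit. The compared groups were 3 libraries of cells given 0.01% ozonated olive oil (OZO), an oil treated with ozone, and 3 libraries of cells given 0.01% olive oil (OLO), each for 6 h. All 6 libraries came from the wild-type B16F10 line, and the libraries of a group are given in the study as independent experiments. Since average expression and its comparison between OZO and OLO come from the same table, all levels, reads and fold changes of these genes below are descriptions and carry no test.

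Olfactory receptors are G-protein-coupled receptors that bind odorants, and they form the largest gene family of the mouse genome. Their coding sequence usually lies in 1 exon, the genes stand in clusters on many chromosomes, and each olfactory sensory neuron expresses a single receptor allele while the others stay silent in compact chromatin. Outside the nose most of these genes are held silent. The cells were checked against markers. All 7 melanocyte markers were above 1 CPM, from 109 CPM for Sox10 to 7050 CPM for Dct, on the scale of the geometric mean over libraries. At an unadjusted limma p-value under 0.05, Pmel was higher in OZO (log2 fold change 0.36 ± 0.13, SE) and Mitf, Sox10 and Tyr were lower (-3.07 ± 0.79, -2.05 ± 0.69 and -0.37 ± 0.14), none with an adjusted value under 0.05. Of 5 markers of olfactory sensory neurons, Cnga2 (the cyclic nucleotide-gated channel of odour transduction) and Rtp1 (a chaperone that carries receptors to the membrane) had no read. Omp, the olfactory marker protein, had 3 reads in 1 OZO library and 1 and 2 reads in 2 OLO libraries. Gnal, the olfactory G protein, and Adcy3, the adenylate cyclase that it drives, stood at 3.85 and 22.3 CPM, and both genes are used by other cell types as well. Of the markers of other skin and blood cells, Krt5 had no read and Krt10 and Krt14 had 1 read each, Cd3e had 2 reads, and Ptprc, the leukocyte phosphatase CD45, had 1, 3 and 3 reads in OZO and 1, 0 and 0 reads in OLO (unadjusted limma p-value 0.0262, adjusted 0.305). In bulk RNA, fewer cells of a type and less RNA per cell cannot be told apart.

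The sequences of the receptor genes show what kind of gene the reads were assigned to. A stretch of coding sequence at the start of the second transmembrane helix was read from GENCODE M21 (GRCm38) for 6 genes, namely the 3 neighbours of subfamily Or55b and, for contrast, 3 other members with unlike read patterns. In capitals is CCCATGTAC, the run of 9 bases that the most receptor coding sequences hold, searched on the coding strand only. It occurred in 50% of 1101 receptor coding sequences, in 60.4% of the 96 members that have one, in 48.9% of those without a read, and in 3.15% of the 21901 coding sequences of all genes, receptors included. Each line gives the gene, its place and strand, and then the bases from 5′ to 3′.
Or55b3, chr7:102477650-102477706, minus strand: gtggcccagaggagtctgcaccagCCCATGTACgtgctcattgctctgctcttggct
Or55b4, chr7:102484903-102484959, minus strand: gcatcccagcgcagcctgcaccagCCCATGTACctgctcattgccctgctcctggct
Or55b10, chr7:102494558-102494614, minus strand: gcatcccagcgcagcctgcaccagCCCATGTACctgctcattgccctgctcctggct
Or52k2, chr7:102604509-102604565, plus strand: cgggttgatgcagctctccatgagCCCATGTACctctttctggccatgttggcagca
Or10v1, chr19:11896170-11896226, plus strand: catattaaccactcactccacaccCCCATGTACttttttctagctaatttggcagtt
Or2y1g, chr11:49280297-49280353, plus strand: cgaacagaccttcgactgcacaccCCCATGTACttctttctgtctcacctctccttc
The windows of Or55b4 and Or55b10 were the same in all 57 bases, and that of Or55b3 differed from each of them at 9 bases. Whole coding sequences of Or55b4 and Or55b10 were 96.4% identical over 925 bases, while Or55b3 was 68.1% and 68.8% identical to them. Reads of the first pair could be split or dropped in counting where their sequence is shared, which held for 1.97% of the stretches of 150 exonic bases, the read length, in Or55b10 and 2.21% in Or55b4.

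Reads of single libraries were worked out from the table, because an average expression fixes the product of (2 × reads + 1) over the 6 libraries and the fold change and its standard error fix how that product divides. The libraries were named by group and by rising scaled size, so that the letters a, b and c are not the replicate numbers of the study. All 98 genes were solved, each with a single combination of reads. Scaled library sizes were between 18266000 and 21116000 reads, and 3 reads over the 118020000 of all libraries, the limit that a count of 0 allows, correspond to 0.0254 CPM (counting error only). An OZO library stood apart from its group. Over 9141 solved genes with few reads, OZO-c correlated with the 3 OLO libraries at r = 0.714 to 0.752 and with OZO-a and OZO-b at 0.62 and 0.642, whereas the OLO libraries correlated with each other at 0.722 to 0.747. OZO-a also differed, as 50 of these genes had 10 reads or more that were all in it, against 4 for OZO-b and 0 for each other library. The coefficients are across genes, which are not independent replicates. Whether the cells of OZO-c were treated as labelled, or less strongly than those of OZO-a and OZO-b, cannot be checked from the table, so that every OZO value that includes this library carries that doubt. Results below are given with and without OZO-c where they rest on it.

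Most members rested on very few reads. A single read was the whole evidence for 42 of the 98 genes, 21 had 2 reads, and 20 had 5 reads or more. Reads fell in only 1 library for 63 genes, in 2 libraries for 19 genes, and in all 6 libraries for 1 gene, Or2y7. Average expression ran from -5.03 to -0.01 on the log2 CPM scale, where a gene without a read stood at -5.3. The 3 genes just inside the limit were Or2y7 at -0.01, Or55b10 at -2.6 and Or55b3 at -2.84. Only 1 receptor gene lay outside it, Or9a7 at 0.15, with 52, 66 and 24 reads in OZO-a, OZO-b and OZO-c and 11, 5 and 19 reads in OLO-a, OLO-b and OLO-c.

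Summed over the 98 genes, reads were more numerous in OZO than in OLO, but the groups overlapped. The sums were 88, 131 and 121 reads in OZO-a, OZO-b and OZO-c and 67, 46 and 118 reads in OLO-a, OLO-b and OLO-c. On the CPM scale they were 5.79 ± 0.997 in OZO and 3.83 ± 1.62 in OLO (SD, n = 3 each), a ratio of 1.51. OLO-c, at 5.59 CPM, lay above OZO-a, at 4.82. One gene decided this overlap. Or2y7 alone held 180 of the 571 reads, and without it the sums were 80, 127 and 64 reads in OZO and 36, 35 and 49 reads in OLO. The means were then 4.67 ± 1.8 and 2.01 ± 0.273 CPM (SD, n = 3 each), a ratio of 2.33, and the groups did not overlap. Leaving out OZO-c as well gave a ratio of 2.73. The 78 genes with 1 to 4 reads had 33, 24 and 30 reads in OZO and 21, 13 and 16 reads in OLO, a ratio of 1.77 in CPM. Over all 8949 solved genes under the limit, the summed CPM did not overlap between the groups either. It was 2290, 2650 and 1700 in OZO-a, OZO-b and OZO-c and 1550, 1610 and 1610 in OLO-a, OLO-b and OLO-c. This sum was 1.39 times as high in OZO as in OLO, 1.55 times without OZO-c, and 1.07 times in OZO-c alone. For the 98 receptor genes together, Or2y7 included, the same ratios were 1.51, 1.52 without OZO-c and 1.5 in OZO-c alone. Without OZO-c the members thus stood close to the 1.55 of all genes in the range only with Or2y7 counted. With Or2y7 left out as well, the ratio was 2.73.

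**Figure D1:**
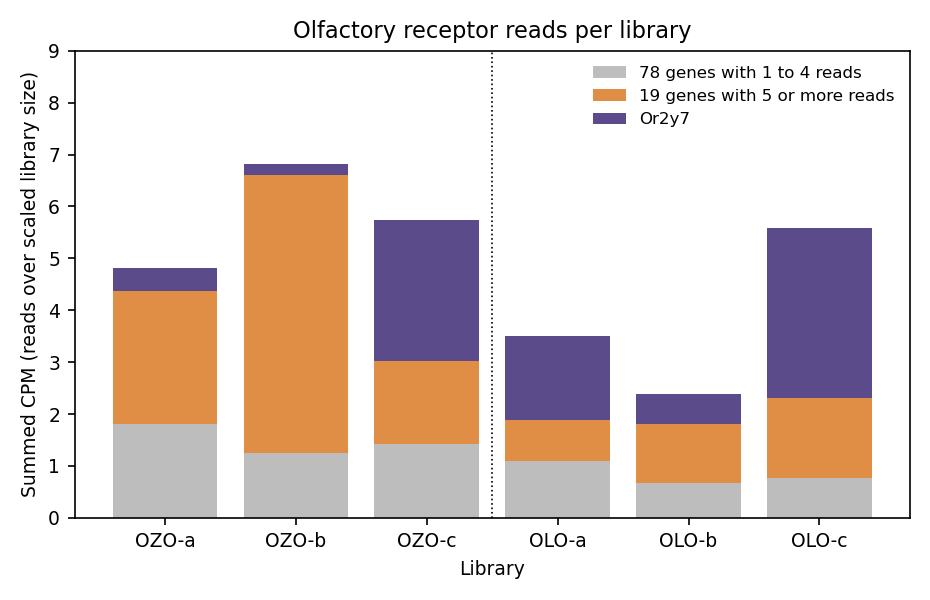
Summed CPM, reads over scaled library size (y axis), of the 98 receptor genes in each of the 6 libraries (x axis), stacked by gene class. Or2y7 takes the upper part of OZO-c, OLO-a and OLO-c, and below it the 3 OZO libraries, at 4.38, 6.6 and 3.04 CPM, stand above the 3 OLO libraries, at 1.89, 1.81 and 2.32.

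Or2y7, the gene of the most reads, ran against the summed reads of the other members. It had 8, 4 and 57 reads in OZO-a, OZO-b and OZO-c and 31, 11 and 69 reads in OLO-a, OLO-b and OLO-c, with a log2 fold change of -1.13 ± 1.14 (SE) in the deposited table, within 1 standard error of 0. The OZO group thus held both its lowest values and the second highest, with OZO-c near OLO-c and OLO-b near OZO-a. The symbol is recent: the RefSeq record of GRCm38.p6 calls the gene Olfr1372-ps1 and a transcribed pseudogene, on chromosome 11 from 52154876 to 52157907, minus strand, and it overlaps the long noncoding RNA gene Gm26551 on the same strand without sharing an exon. Col1a2, a collagen gene listed here as a marker of fibroblasts, had a like spread over the libraries, with 8, 3 and 41 reads in OZO and 76, 15 and 92 reads in OLO, and was picked after its values were seen. Log2 fold changes of the 3 fibroblast markers were -2.12 ± 1.19 for Col1a2, -0.28 ± 0.2 for Col1a1 and -0.86 ± 0.48 for Pdgfra (SE), none with an unadjusted limma p-value under 0.05, and reads per library were not worked out for Col1a1 and Pdgfra. The part of other cells in the reads of Or2y7 was not tested.

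Another 3 receptors, all of the class I subfamily Or55b, lay side by side on chromosome 7. Or55b3 had 8, 5 and 5 reads in OZO and 0, 6 and 0 reads in OLO, with a log2 fold change of 2.45 ± 1.08 (SE). Or55b10 had 5, 7 and 3 reads in OZO and 0, 3 and 4 reads in OLO, with a log2 fold change of 1.41 ± 0.91. Or55b4 had 3, 5 and 0 reads in OZO and no read in OLO. These genes were all higher in OZO by their sums, and in each the lowest OZO library did not exceed the highest OLO library. They are the whole Or55b subfamily of the table, 3 of 3 genes.

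Several receptors had reads in OZO-a and OZO-b and none in OZO-c. Or9a4 had 7 and 15 reads in these libraries and 0, 3 and 2 reads in OLO, with a log2 fold change of 1.24 ± 1.64 (SE). Or2y8, which lies next to Or2y7 at a distance of 5.75 kb, had 6 and 13 reads there and 1, 0 and 1 reads in OLO, the reverse of its neighbour. Or8b53 had 9 and 10 reads there and 0, 1 and 0 reads in OLO, with a log2 fold change of 2.35 ± 1.52. In each of these genes OZO-c fell with the OLO libraries, and the fold change rested on the other pair. Among the 20 genes with 5 or more reads, 7 followed this pattern (35%), beside 8.6% of all 5952 solved genes of 5 or more reads in the range, whose totals were not matched to those of the members. Among the 56 genes with 2 or more reads it was 9 (16.1%), beside 7 with reads in OZO-a and OZO-c only of the OZO libraries and 3 with reads in OZO-b and OZO-c only. Over all 7737 solved genes of 2 or more reads in the same range, the shares were 8.79%, 6.75% and 7.2% in the same order.

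Or10v1, on chromosome 19, had the opposite pattern. It had 0, 0 and 3 reads in OZO and 5, 7 and 5 reads in OLO, so that every OLO library lay above every OZO library. Its log2 fold change was -2.64 ± 0.76 (SE), with a limma p-value of 0.0184 unadjusted and 0.278 adjusted by Benjamini-Hochberg over all genes. It was 1 of 98 members with an unadjusted p-value under 0.05, where 13.3% of all genes and 8.53% of the 9276 genes with reads under the limit had one. None of the 98 was higher in OZO at that limit, beside 6.25% of all genes and 5.42% of those in its range, and 1 was lower, beside 7.08% and 3.1%. It was also the single member whose groups did not overlap, being lower in OZO, where 3.52% of solved genes were lower in all OZO libraries and 8.02% were higher in all. Nothing is read from these shares, because average expression, which chose the members, comes from the same libraries as the comparison. None of the 27179 genes had an adjusted limma p-value under 0.05, while 3624 had an unadjusted one.

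The remaining receptors of the 10 highest levels showed no such order. Or52k2 had 2, 1 and 7 reads in OZO and 4, 2 and 0 reads in OLO. Or6c66b had 1, 0 and 6 reads in OZO and 1, 0 and 5 reads in OLO, which are high in the c library of each group. Or2t1 had 0, 1 and 3 reads in OZO and 0, 0 and 7 reads in OLO. Log2 fold changes of these genes, 0.81 ± 1.07, 0.1 ± 1.28 and 0.18 ± 1.33 (SE), lay within 1 standard error of 0. Below them stood genes whose reads came wholly or nearly so from 1 library, such as Or2y1g, with 21 of 22 reads in OZO-b and the other in OLO-a, Or1o3, with 6 reads in OLO-c, and Or4d1, with 6 reads in OZO-b. Of the 56 genes with 2 or more reads, 21 had all of them in 1 library.

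**Figure D2:**
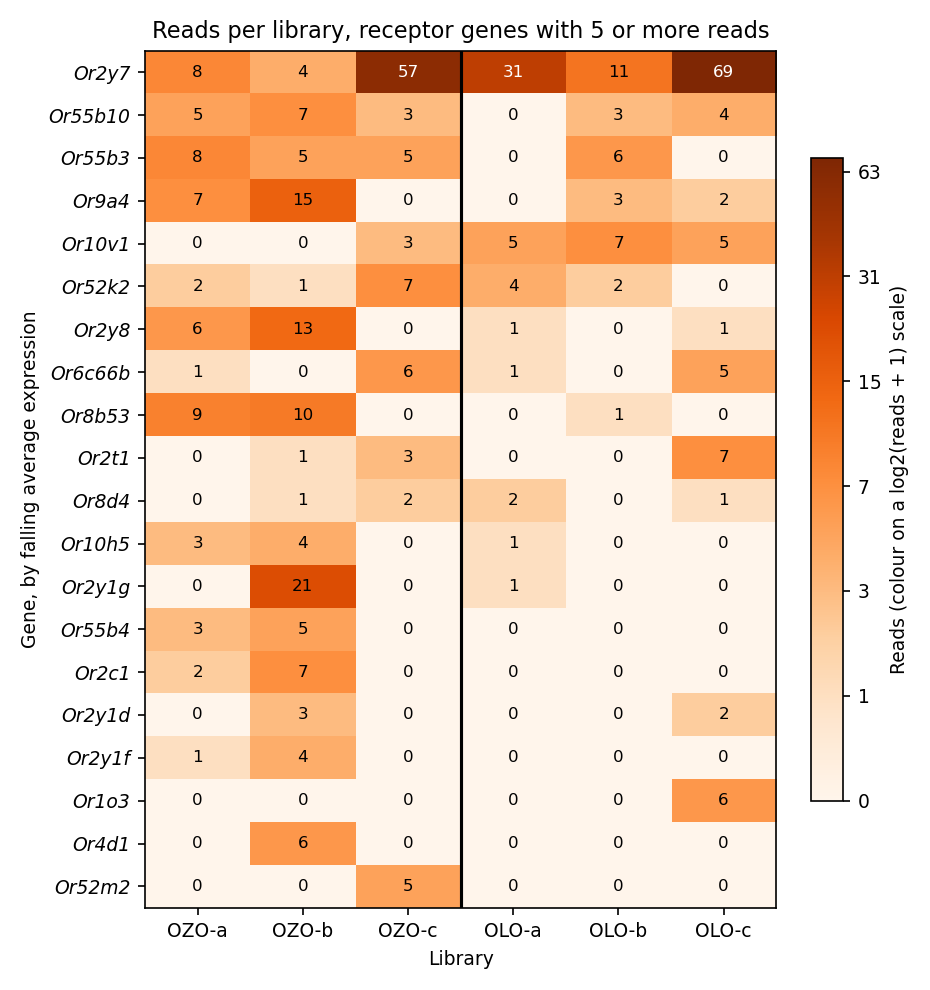
Reads in each library (columns, with a line between OZO and OLO) of the 20 receptor genes with 5 or more reads (rows, by falling average expression), the colour on a log2(reads + 1) scale. Or2y7 is darkest in OZO-c, OLO-a and OLO-c, and 7 genes have reads in OZO-a and OZO-b but 0 in OZO-c.

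Counted by direction, more members leaned to OZO than to OLO, as did the other genes of few reads. Reads were more numerous in OZO for 61 genes (62.2%), in OLO for 28 genes (28.6%) and equal for 9, beside 56.6% and 35.9% of all 8949 solved genes in the range. Reads occurred only in OZO for 48 genes (49%) and only in OLO for 24 (24.5%), beside 18% and 10.3% of all, which mostly had more reads than the members. Within the class of 2 to 4 reads, 41.7% of 36 members had reads only in OZO and 25% only in OLO, beside 33.2% and 18.7% of 1785 genes. Among the 42 genes of a single read, 28 reads were in OZO libraries (66.7%) and 14 in OLO libraries, beside 57.1% in OZO over all 1212 solved genes of 1 read. Over all genes the median log2 fold change was 0.02, which is also the value given to the 6025 genes without a read. The median log2 fold change of the members was 0.55, against 0.31 over all 9276 genes with reads in the same range. As an unweighted difference, which was also 0.55 with all libraries, it fell to 0.1 without OZO-c, 0.24 without OZO-a and 0.28 without OZO-b. The value 0.55 is itself the fold change given to a member with 1 read in an OZO library, and a member with 1 read in an OLO library received -0.51 to -0.5. The first of these is the value of the 28 among the 98 members that had 1 read in an OZO library, and Or14j7, with 3 reads, rounds to it too. By mean CPM, 66 members (67.3%) were higher in OZO, and 47 of the 85 with reads (55.3%) without OZO-c, while 61.6% and 57.8% of all solved genes in that range were. Set against OLO by itself, OZO-c had 32 members higher (48.5%) and 34 lower (51.5%), beside 46.8% and 53.2% of all.

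**Figure D3:**
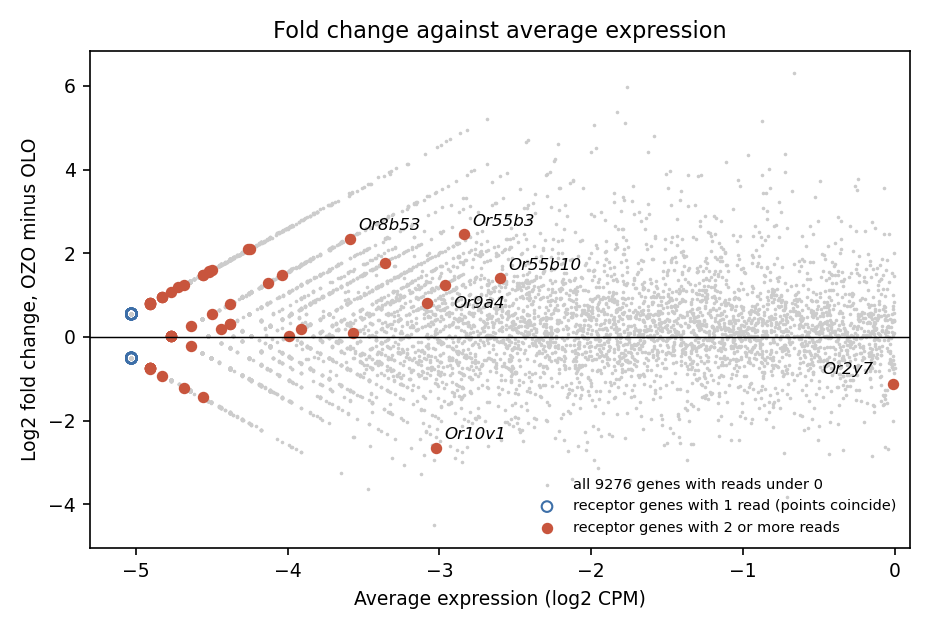
Log2 fold change of OZO minus OLO (y axis) against average expression in log2 CPM (x axis) for 9276 genes with reads under the limit (grey) and the 98 receptor genes (circles, open for 1 read, which coincide at 2 places). The receptor genes lie mostly on the outer lines at the left, where reads come from 1 group, and Or2y7 and Or10v1 are the lowest of the labelled genes at -1.13 and -2.64.

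Reads were not spread evenly over the receptor clusters. The members were on 15 chromosomes, with 19 of 239 receptor genes (7.95%) on chromosome 7, 16 of 83 (19.3%) on chromosome 11, 13 of 133 (9.77%) on chromosome 9 and 8 of 291 (2.75%) on chromosome 2, which holds the most receptor genes. Class I receptors, the fish-like families, and class II receptors had members at nearly the same rate, 9.38% of 128 and 8.71% of 987. The subfamily Or2y on chromosome 11 gave 9 members of its 19 genes and 238 reads, of which 180 were those of Or2y7 and 58 those of the other members. For 48 of the 98 members (49%), a receptor gene next to it on the chromosome was a member too.

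The members lay nearer to expressed genes than the silent receptor genes did. The nearest gene of at least 1 CPM that is no olfactory receptor lay at a median of 76.9 kb from the members and 364 kb from the 1016 receptor genes without a read. Within 10 kb of such a gene were 8 members (8.16%) and 8 silent receptor genes (0.787%), within 50 kb 36 members (36.7%) and 77 (7.58%), and within 100 kb 56 members (57.1%) and 163 (16%). With a neighbour of at least 16 CPM the shares within 100 kb were 37.8% and 11.1%. Reads followed the same order: the 20 genes with 5 or more reads lay at a median of 26 kb, those with 2 to 4 reads at 80.3 kb and those with 1 read at 118 kb. The 56 members within 100 kb held 484 of the 571 reads (84.8%). The median exon length was 3066 bp in 97 members and 2930 bp in 1015 silent receptor genes. Neighbouring receptor genes share their neighbours, so these genes are not independent of each other and no test was made.

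**Figure D4:**
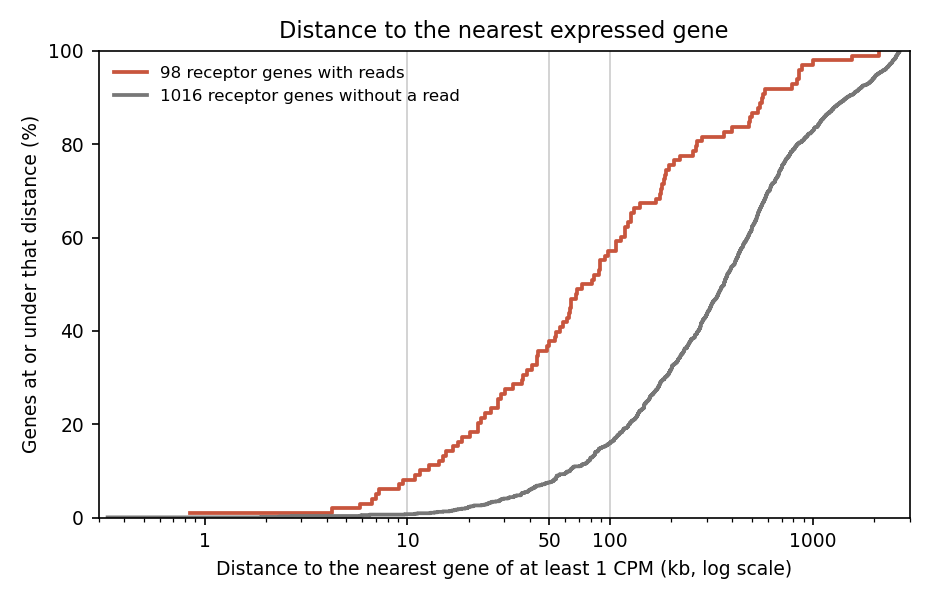
Share of receptor genes (y axis, %) at or under each distance to the nearest gene of at least 1 CPM (x axis, kb, log scale), for the 98 genes with reads (red) and the 1016 without (grey). The red line lies to the left, with medians of 76.9 and 364 kb.

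The neighbour lay on either strand. Of the 56 members within 100 kb of an expressed gene, 8 lay past it on the same strand, 19 lay before it on the same strand, 18 faced it end to end and 11 stood back to back with it (14.3%, 33.9%, 32.1% and 19.6%). Of the 163 silent receptor genes within that distance the shares were 16%, 27%, 33.1% and 23.9% in the same order. Most of the nearest expressed genes had a log2 fold change under 0, and the share over all expressed genes was not worked out. The nearest gene was counted once for each member, so that a shared neighbour counts several times. For the 36 of these members with more reads in OZO, the median log2 fold change of the nearest gene was -0.36, and the value was positive for 8 members. For the 16 with more reads in OLO the median was -0.19, and the value was positive for 6 members. The strand used in counting is not given in the sources used here, so the strand of these reads is not known.

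Stretches of 100 kb past 3 expressed genes, chosen after the values were seen, held 9 members. Past the end of Rrm1, the large subunit of ribonucleotide reductase, at 422 CPM and with a log2 fold change of -0.32 ± 0.14 (SE), came Or55b3 at 7 kb, Or55b4 at 14.3 kb and Or55b10 at 24.1 kb on the opposite strand, then Or52b4 at 65 kb, while Or52b3 at 84.5 kb had no read. These 4 members had 16, 19 and 8 reads in OZO and 0, 9 and 4 reads in OLO. Or52b4 had a nearer expressed gene, Trim21, at 22.2 kb. Or52b3, without a read, lay only 2.68 kb from its nearest gene of at least 1 CPM. Past Mgat1, an enzyme of N-glycan synthesis, at 27.2 CPM and -0.27 ± 0.25, came Or2y1g at 0.846 kb by the start of its annotated span (its coding exon lies farther on), Or2y1f at 30.3 kb and Or2y1e at 64.4 kb on the same strand, with 3, 25 and 0 reads in OZO and 1, 0 and 0 in OLO. The other receptor genes of the stretch, Or2y1b and Or2y17, had no read, but farther from Mgat1 Or2y1d at 167 kb had 5 reads and Or2y16 at 181 kb had 1. Beyond the stretch past Rrm1, Or52p2 at 118 kb, Or52k2 at 135 kb, Or52m2 at 144 kb and Or52i2 at 200 kb had 2, 16, 5 and 3 reads. These members had nearer expressed genes, Trim21 (5.19 CPM) at 22.3 kb from Or52p2, 38.9 kb from Or52k2 and 48.5 kb from Or52m2, and Trim68 (7.46 CPM) at 6.66 kb from Or52i2. Past Ppp2ca, a catalytic subunit of protein phosphatase 2A, at 423 CPM and 0.06 ± 0.04, came Or2y8 at 21.8 kb and Or2y7 at 32.1 kb on the opposite strand, and Or2y6 at 90.3 kb had no read. Or2y8 and Or2y7 had a nearer gene of at least 1 CPM, Mir3061 (1.16 CPM), at 17.8 and 28 kb. Or2y6, without a read, lay 16.5 kb from its nearest such gene. The unadjusted limma p-values of Rrm1, Mgat1 and Ppp2ca themselves were 0.0736, 0.327 and 0.22.

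**Figure D5:**
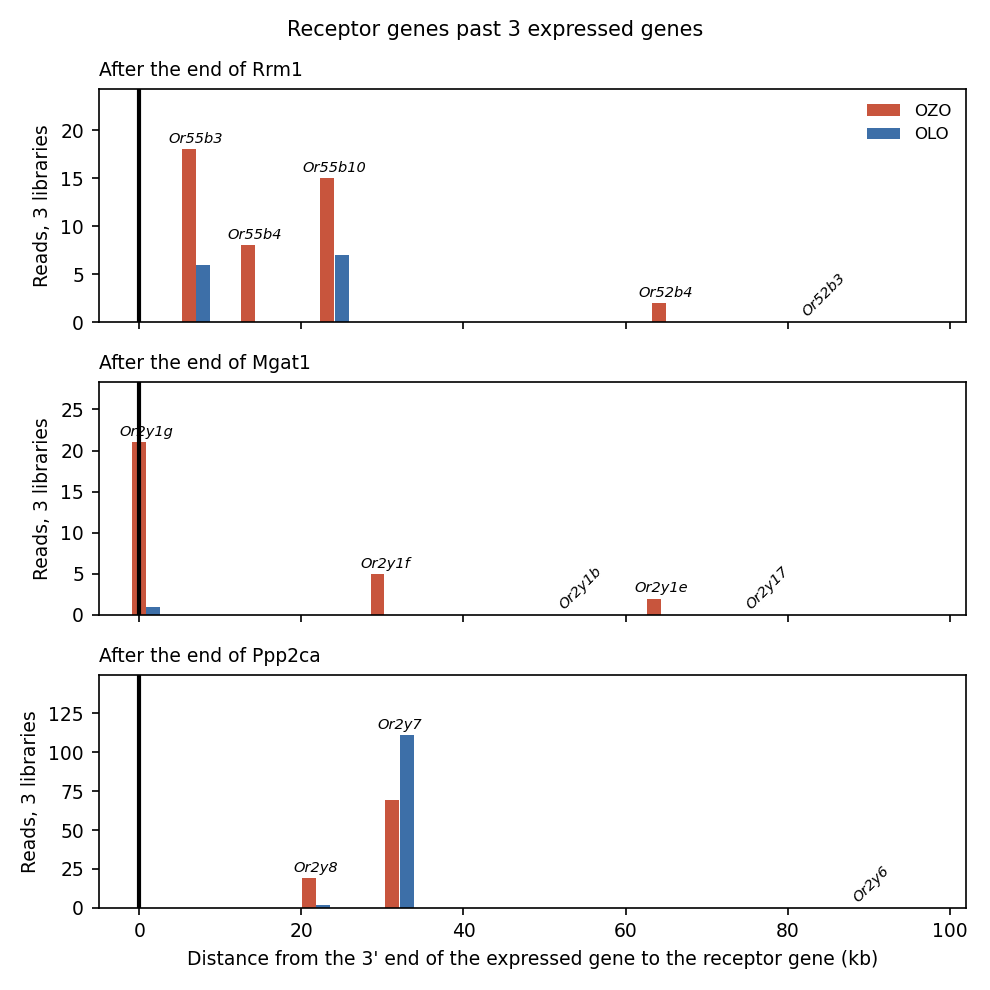
Reads of receptor genes in OZO (red) and OLO (blue), each summed over 3 libraries (y axis), at their distance in kb (x axis) from the 3′ end of Rrm1, Mgat1 and Ppp2ca (black line), out to 100 kb. Within that stretch the genes with reads lie within 65 kb of the end and those named without a bar had no read. Members farther out and other expressed genes, some of them nearer to the receptor genes, are not drawn.

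Another case was Or8b53, which began 9.46 kb after Vwa5a (20.1 CPM, log2 fold change -0.4) on the same strand. Exons of 7 members overlapped those of another annotated gene. Or2t1 overlapped the antisense transcript Gm48860, Or1o3 overlapped Gm20429 on the other strand, and Or51e2, whose human counterpart is also known in prostate and in melanocytes, overlapped the receptor record Olfr560. The other members with such an overlap were Or10ad1, Or10b1, Or51e1 and Or1e1. The 91 members without such an overlap had 1.6 times the summed CPM in OZO as in OLO. Close copies were frequent. In the reference coding sequences 26 members had another receptor gene at 95% identity or more, among them Or2y8 with Or2y11 at 98.6% and Or2y1g with Or2y1b at 96.7%. In 35 of 97 members some stretch of 150 bases, the read length of the study, occurred in another annotated transcript, and in 1 member, Or1e1, 90.4% of such stretches did, shared with Gm49340. Among the 35 members the median share of such stretches was 3.33%, 26 of them were under 10%, and 7 of the members with a copy at 95% identity or more had none. The assignment of reads is uncertain in the shared stretches. RefSeq lists 96 of the 98 members as protein coding.

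Genes that serve the receptors in sensory neurons were mostly low or used elsewhere. Of 18 listed genes of olfactory signalling in the table, 10 reached 1 CPM and 3 had no read (Cnga2, Rtp1 and Rtp2). At an unadjusted limma p-value under 0.05, 3 were higher in OZO and 1 was lower, and over all genes 1699 were higher and 1925 lower (6.25% and 7.08%). Those higher were Ano2, the calcium-activated chloride channel of the cilia, with 7, 5 and 6 reads in OZO and 4, 1 and 2 reads in OLO, Stoml3, a stomatin-like membrane protein, with 5, 3 and 2 reads in OZO and 0, 0 and 2 in OLO, and Cngb1, a channel subunit, with a log2 fold change of 0.41 ± 0.16 (SE). Pde4a, a cyclic AMP phosphodiesterase, was lower at -0.94 ± 0.28. The median log2 fold change of the list was 0.11, against 0.02 over all genes, which is also the value given to the 6025 genes without a read. The shares of all genes given here and below include those genes.

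Of 12 listed genes that control receptor choice, 6 reached 1 CPM. One, Ldb1, the partner of LIM-homeodomain factors at receptor enhancers and in many other tissues, was lower in OZO at -0.37 ± 0.09 (SE), with a limma p-value of 0.00872 unadjusted and 0.239 adjusted, beside 7.08% of all genes lower at an unadjusted value under 0.05, and none of the 12 was higher. All 20 listed genes of silent heterochromatin were expressed, from 12.7 to 820 CPM. Among them 1 was higher and 4 were lower at an unadjusted limma p-value under 0.05, beside 6.25% and 7.08% of all genes. Of all genes, 6025 had no read, and among the 9276 with reads under the limit the shares were 5.42% and 3.1%. Genes of at least 1 CPM therefore held higher shares than all genes, which were not worked out, so nothing is read from these counts. Kmt5b, which methylates histone H4 at lysine 20, stood at 0.63 ± 0.12. Lmnb1, lamin B1 of the nuclear envelope, stood at -1.36 ± 0.38, and the histone H3 lysine 9 methyltransferases Suv39h2, Setdb1 and Ehmt1 stood at -0.35 ± 0.11, -0.4 ± 0.14 and -0.54 ± 0.21. The median of this list was -0.19. None of the genes of these lists had an adjusted limma p-value under 0.05, and their part in the reads of the receptor genes was not tested.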

How the data were processed

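RNA of 3 OZO and 3 OLO libraries of B16F10 cells was prepared with a directional kit and sequenced as paired reads of 150 bases. According to the methods and the submitters' processing notes, reads were aligned to mm10 with HISAT2 2.1.0, counted with featureCounts 2.1.1 and compared with limma-voom (limma 3.58.1). The log2 fold changes, average log2 CPM, moderated t statistics (scores) and p-values, unadjusted and Benjamini-Hochberg adjusted, are those the authors deposited for 27179 genes, and nothing was fitted again. The deposited columns are the comparison of OZO minus OLO. The strand setting and the counting unit (reads or pairs) are not given in the sources used here.

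The standard error was the log2 fold change over the statistic. Voom adds 0.5 reads to each count, so 2 to the power of 6 times the distance from the lowest average expression is a whole odd product, which it was for all 6973 genes with a product under 1e6, within a relative distance of 1e-06. Reads per library were the combination whose log2 fold change and SE fitted within 5e-04 and 0.001 (in natural log), with the next combination at least 5 times worse. Of 9503 genes with a product under 1e10, 9141 (96.2%) were solved. On simulated counts of the OZO against OLO comparison for 27179 genes, 98.9% of 3000 genes tried were solved and 100% of those were right in all 6 libraries. With scaled sizes of 18266000 to 21116000 reads, 1 read is about 0.051 CPM and most members rest on few reads, so that counting error is large.

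Gene places came from RefSeq (GRCm38.p6) by Entrez ID, exons and coding sequences from GENCODE M21, and identities from blastn 2.17.0+. Distances run between RefSeq gene spans, which can be much shorter than the GENCODE exons. Or55b10, for example, spans 102493823 to 102494773 but has 3496 exonic bp. Exon lengths, shares of shared stretches and reads per megabase follow the GENCODE exons. In members with a coding sequence, a median of 69.3% of these exonic bases lay outside it. Python 3.11.15, pandas 2.3.3, numpy 2.4.6 and scipy 1.17.1 were used.

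The members and lists were chosen with earlier results of these data known. Genes named were the 10 members of the highest level, members with an unadjusted p-value under 0.05, the highest members that overlap exons of another gene or follow a gene of 16 CPM within 10 kb, the 3 genes inside and those outside the upper limit, and list genes with an unadjusted p-value under 0.05. Other members were named after their values were seen. The plan's test for tables of counts was not run, because the file held the comparison.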

Additional observations from a re-analysis of the deposited data

How the results depend on the processing

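The number of members, 98, was 97 with an upper limit of -1 or -2, 99 with a limit of 1, unchanged by symbol or with pseudogenes kept, and 84 to 93 with 1 library left out, a choice made after seeing the data. With an unadjusted p-value under 0.05, 0 members were higher and 1 lower, also with a 2-fold limit. By sign alone 71 were higher and 27 lower, and past a log2 fold change of 1 without a p-value 17 and 4. By mean CPM, added after seeing the data, the split was 66 and 32 with all libraries, 47 and 38 without OZO-c, and 52 and 32 without OZO-a. The median log2 fold change, 0.55, was 0.79 in the 56 members with at least 2 reads and 1.25 in the 20 with at least 5. As an unweighted value it was 0.55, and 0.1 to 0.58 with 1 library left out, the lowest value being that without OZO-c. The ratio of reads, 1.51, was 1.27 in the 90 members with no expressed gene within 10 kb, 1.51 with a tighter or a looser tolerance, and 1.27 to 1.96 with 1 library left out. After seeing the data Or2y7 was left out, which gave 2.33, then 2.73 without OZO-c and 2.4 without OZO-a. The share of members near an expressed gene, 8.16%, was 36.7% at 50 kb, 57.1% at 100 kb, 4.08% with 16 CPM and 2.04% with 32 CPM, and that of silent receptor genes, 0.787%, was 7.58%, 16%, 0.197% and 0.197%. The causes of these differences were not tested beyond the construction of each alternative. No paired analysis was possible because the recovered libraries cannot be matched to the replicate numbers of the labels. Another test, another normalization and a filter on low counts were not run.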

Other observations

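Other families of chemoreceptors had reads at differing rates. None of 15 trace amine-associated receptor genes had a read, and 1 of 7 formyl peptide receptor genes had a single read, in OZO-a. Vomeronasal 1 receptors, which serve pheromone sensing, had reads under the same limit in 17 of 232 genes (7.33%), with 11, 7 and 25 reads in OZO-a, OZO-b and OZO-c and 16, 8 and 30 reads in OLO-a, OLO-b and OLO-c. Both groups were highest in their c library, as in Or6c66b. Vomeronasal 2 receptors had reads under the limit in 23 of 122 genes (18.9%), with 46, 51 and 30 reads in OZO and 17, 13 and 24 reads in OLO. The groups did not overlap, as was also so for the summed CPM of all solved genes under the limit. Taste receptors had reads under the limit in 9 of 38 genes (23.7%), with 46, 99 and 20 reads in OZO and 20, 27 and 24 reads in OLO, where OZO-c again fell with OLO. Olfactory receptors, at 8.79% of 1115 genes, stood between them.

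Per megabase of annotated exon under the limit, olfactory receptors had 31.8 reads per OZO library and 21.6 per OLO library, vomeronasal 1 receptors 16.6 and 20.8, and vomeronasal 2 receptors 45.5 and 19.3. Taste receptors, with 0.0407 megabases of exon in all, had 1350 reads per megabase in an OZO library and 581 in an OLO library. Of 2 families of other kinds, defensins had reads in 10 of 70 genes, at 84.4 and 63.3 reads per megabase, and keratin associated proteins in 5 of 55, at 42.2 in each group. These families were not compared by a test.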
